A study of Mus musculus with 10 samples.

Results

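SIRT6 transgenic islets were compared with control islets at 10 months of age, which is 4 of the 10 libraries of a mouse islet RNA sequencing series. Islets of Langerhans were isolated from the pancreas, used fresh without culture and left untreated. The 2 control libraries came from mice labelled wild type and the 2 others from mice labelled SIRT6 transgenic, all in the submitters' first batch. The other 6 libraries, 3 of each genotype at 16 months, form the second batch, which makes batch the same split as age. Members were chosen by these labels alone, and all genes were read, with exocrine genes set apart from the rest. The series concerns SIRT6 in pancreatic beta cells during aging. The promoter that drives the transgene, the strain, the sex and whether a library pools mice are not given in the sources used here. Nothing says that replicates are separate mice, so p-values measure the spread between these libraries, which may be technical.

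SIRT6 is a nuclear NAD-dependent enzyme that removes acyl groups from histones and other proteins and is known for roles in glycolysis, DNA repair and aging. Islets are small endocrine organs whose beta, alpha, delta and PP cells release insulin, glucagon, somatostatin and pancreatic polypeptide. They lie inside exocrine tissue, where acinar cells make digestive enzymes under the transcription factor complex PTF1, and isolation carries some of that tissue along. Heat shock proteins are chaperones that fold newly made or damaged proteins, and many of their genes are driven by heat shock factor 1.

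Levels are given as CPM, counts relative to the library's total after edgeR's trimmed mean of M-values scaling. Fold changes are log2 of transgenic over control from edgeR's quasi-likelihood fit, so a value above 0 means higher in the libraries labelled transgenic. Totals were 32533177 and 92529221 counts in control replicates 1 and 2, and 38815550 and 35026862 in transgenic replicates 1 and 2. Sirt6 itself stood at 11.9 and 9.85 CPM in the controls against 10.6 and 10.2 CPM in the transgenic libraries, and the groups overlapped (log2 fold change -0.06, SE 0.17). Counts of the mouse Sirt6 gene thus did not separate the labels, and whether they include the transgene's transcript is not given in the sources used here. The word transgenic below means the libraries labelled so.

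Transgenic replicate 2 stood apart from the other libraries by gene length. Genes were put into 5 equal classes by summed exon length, and each library was set against the mean of the 2 controls. In transgenic replicate 2 the median difference was 0.39 in the shortest class, then 0.14, -0.05 and -0.23, and -0.56 in the longest, all on the log2 scale. In transgenic replicate 1 the medians lay between -0.03 and 0.00. Short genes thus read high and long genes low in 1 of the 2 transgenic libraries. The cause was not tested. Values without transgenic replicate 2, or with the length trend removed from every library by a smooth curve, are given beside many results below, and the plot of list medians shows both for each list with at least 5 genes. Of the 88 genes named here, 1 changed sign without transgenic replicate 2, and the fold changes of 19 shrank and of 3 grew by over 1.5 times.

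**Figure D1:**
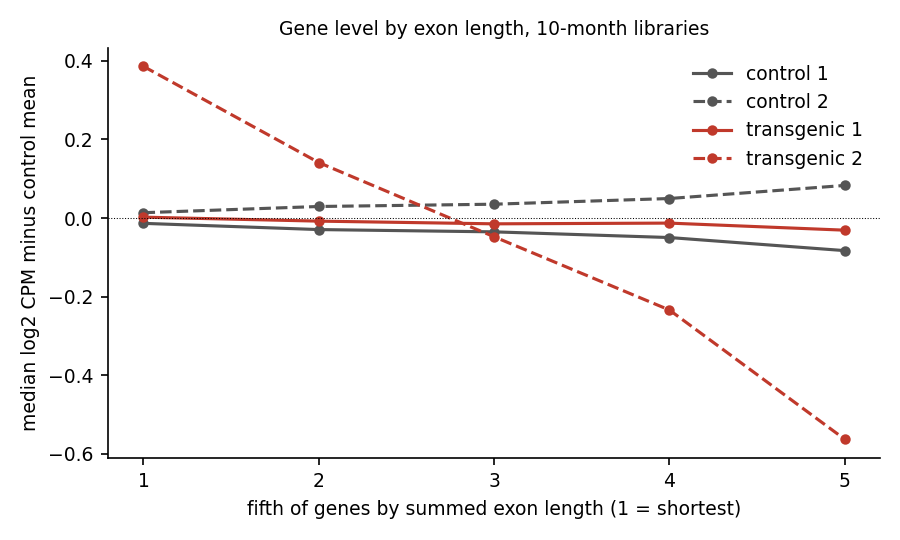
Median gene level of each 10-month library minus the mean of both control libraries (log2 CPM, y axis) in 5 classes of genes by summed exon length (x axis, 1 = shortest). Lines are libraries: transgenic replicate 2 goes from 0.39 to -0.56, while transgenic replicate 1 stays between -0.03 and 0.00.

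No gene passed the test at 10 months. Of 19218 genes tested, 0 (0%) had a Benjamini-Hochberg adjusted p under 0.05 by edgeR, limma-voom called 0 and DESeq2 called 22. At an unadjusted p under 0.05, 640 genes were higher (3.33%) and 549 were lower (2.86%). Scaling by total counts, which moved the median of all genes to -0.25, gave 215 higher and 1672 lower. It also turned the medians of the endoplasmic reticulum stress, NF-kappaB, glycolysis, duct and methionine cycle lists, to -0.13, -0.04, -0.16, -0.01 and -0.07. The oxidative phosphorylation, collagen hydroxylation, immediate early and interferon medians turned too, to -0.01, -0.07, -0.23 and -0.14. So did the antioxidant and senescence medians, to -0.08 and -0.15. Leaving out transgenic replicate 1, so that replicate 2 stood alone and was taken to vary like the other groups, edgeR called 1895 of 20173 genes (9.39%), and with the length trend also removed it called 659. Leaving out transgenic replicate 2 gave 0 calls of 20164. The 2 values of one group lay wholly above the 2 of the other for 3296 genes that were higher (17.2%) and 3110 that were lower (16.2%). Where genes below were named for a small p, their lying apart largely follows from that choice. An exact permutation test of 2 against 2 libraries cannot give a two-sided p below 0.333. Every gene named below has an edgeR adjusted p of at least 0.701, so each fold change is given with its standard error (SE), and counts at the unadjusted p describe the lists and are to be read against 3.33% higher and 2.86% lower.

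Digestive enzyme genes of acinar cells had the highest median fold change of the lists with all libraries in the fit. The acinar secretory list took 13.7% and 16.1% of all counts in the transgenic libraries, against 6.22% and 3.03% in the controls. Both transgenic libraries stood above both controls, and the mean log2 CPM of the list, 8.38 and 7.32 in controls, was 9.64 and 10.11 in transgenic libraries. All 36 members had a fold change above 0, against 49.2% of all genes, with a median of 1.96 against -0.01 over all genes. By the unadjusted p, 33 of 36 were higher and 0 lower (3.33% and 2.86% of all genes). For 34 of 36 both transgenic libraries lay above both controls (17.2% of all genes). In bulk islets, more acinar cells and more RNA per acinar cell cannot be told apart.

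The promoters of some of these genes are shown because the genes were higher together and PTF1 is the known acinar regulator. The letters TTTCCCA, read by the RBPJ or RBPJL subunit of PTF1, were sought on both strands in RefSeq promoter windows (GRCm38.p6) from 250 bases before to 50 bases after each start. They occurred in 7 of the 27 secretory genes with an entry (25.9%), in 1 of 11 other acinar genes (9.09%), in 1 of 22 beta cell genes (4.55%), in 1 of 20 heat shock genes (5%) and in 9.16% of 27025 genes overall. A match describes the letters and not a bound site. The stretches below run 5′ to 3′ on the gene's strand, with the matched letters, or their complement on the other strand, in capitals.
Cpa1 (chr6:30639178-30639217, plus strand): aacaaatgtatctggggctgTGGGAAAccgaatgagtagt
Ctrb1 (chr8:111691179-111691225, minus strand): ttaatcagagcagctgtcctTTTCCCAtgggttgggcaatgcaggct
Prss2 (chr6:41521645-41521691, plus strand): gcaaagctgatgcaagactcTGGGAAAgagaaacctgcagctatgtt
Reg1 (chr6:78425751-78425797, plus strand): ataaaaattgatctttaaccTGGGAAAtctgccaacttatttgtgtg

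The 6 secretory genes with the highest 10-month level were all higher in both transgenic libraries. Ctrb1, chymotrypsinogen B, stood at 9138 and 4233 CPM in the controls against 21300.4 and 29638 CPM in the transgenic libraries (log2 fold change 1.93, SE 0.68, 95% interval 0.41 to 3.45, edgeR adjusted p = 0.701). Cela1, a pancreatic elastase, stood at 3898 and 2215 CPM in the controls against 10592 and 18380.5 CPM in the transgenic libraries (log2 fold change 2.24, SE 0.75). Within each group the replicates also differed, with control 1 above control 2 and transgenic 2 above transgenic 1. The elastase Cela2a stood at 4277 and 2631 CPM in the controls against 11712 and 19624 CPM in the transgenic libraries (log2 fold change 2.18, SE 0.78). Cpa1, carboxypeptidase A, stood at 5272 and 2454 CPM in the controls against 12893 and 15878 CPM in the transgenic libraries (log2 fold change 1.90, SE 0.72). The fold changes of Pnlip, pancreatic lipase, and of the trypsinogen Prss2 were 1.91 (SE 0.74) and 1.83 (SE 0.72). Reg1, a secreted acinar protein, was counted at 738 and 393 CPM in the controls against 2130.3 and 3156 CPM in the transgenic libraries. Trypsinogen genes, like amylase genes, are near-identical copies, and counting can split their reads.

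The 3 secretory genes that missed an unadjusted p of 0.05 were Prss1, Try5 and Dmbt1, which are named after their values were seen. Try5, a trypsinogen, stood at 3209 and 1328 CPM in the controls against 5519.9 and 6562 CPM in the transgenic libraries (log2 fold change 1.41, SE 0.71). Dmbt1, a secreted glycoprotein, stood at 1465 and 555 CPM in the controls against 2860.1 and 1444 CPM in the transgenic libraries and so overlapped between the groups (log2 fold change 1.09, SE 0.58). Prss1 was low and overlapped too, at 2.12 and 0.261 CPM in the controls against 1.92 and 2.40 CPM in the transgenic libraries.

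Acinar genes that encode no digestive enzyme were higher too. In this list 11 of 13 tested genes had a fold change above 0, with a median of 1.81, and 9 were higher at the unadjusted p. Rbpjl, the acinar subunit of PTF1, stood at 5.51 and 2.80 CPM in the controls against 18 and 19.3 CPM in the transgenic libraries (log2 fold change 2.19, SE 0.69). Erp27, a chaperone-like protein of the endoplasmic reticulum, stood at 23.3 and 11.3 CPM in the controls against 61.9 and 94.4 CPM in the transgenic libraries (log2 fold change 2.19, SE 0.69). Tmed11, a cargo transport protein, stood at 1.84 and 0.847 CPM in the controls against 4.78 and 8.82 CPM in the transgenic libraries (log2 fold change 2.38, SE 0.70). Each of the 3 was at least as high in transgenic replicate 2 as in replicate 1 and lowest in control replicate 2. The other acinar gene, Gatm, was not tested because it had too few counts here, and whether that comes from the counting is not given in the sources used here.

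The size of the acinar difference was similar without the library that departed by length. Without transgenic replicate 2 the secretory median was 1.71, with all 36 members above 0, but 0 of 36 reached the unadjusted p, where 0.967% of all genes did. With the length trend removed the median was 1.88 and 31 of 36 were higher (3.69% of all genes). The plot by library shows the members lying close together within each library.

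**Figure D2:**
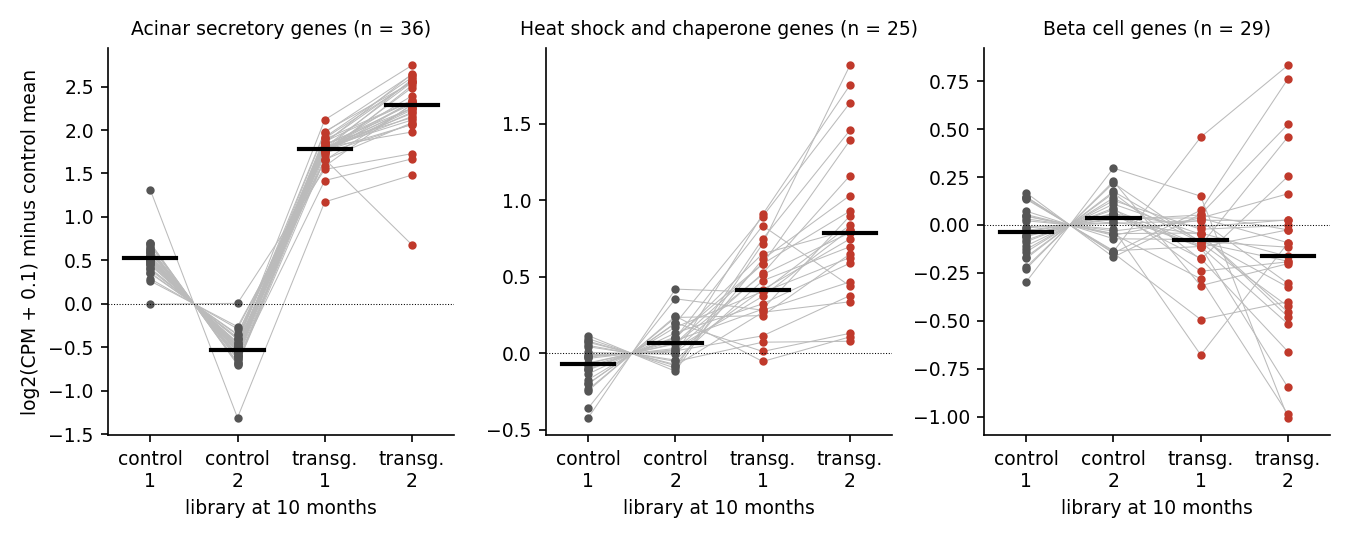
Each grey line is 1 gene, plotted as log2(CPM + 0.1) minus its mean in the 2 control libraries (y axis) in each 10-month library (x axis), for acinar secretory, heat shock and chaperone, and beta cell genes. Black bars are medians. All acinar medians in the transgenic libraries lie above those of the controls, the heat shock medians lie above by less, and the beta cell genes scatter around 0.

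Further genes followed the acinar level without being in either acinar list. They were found in the 16-month libraries only, as genes whose log2 CPM had a Pearson r of at least 0.9 and a slope of at least 0.5 against the mean acinar level over the 6 libraries. Of these 89 genes, 80 had a fold change above 0 at 10 months, with a median of 1.51, and 51 were higher and 0 lower at the unadjusted p. Of the 49 acinar list genes tested, 43 met the same rule, 34 of 36 secretory genes and 9 of 13 others. The secretory genes are themselves part of the mean in the rule, so their count follows in part by construction. Multiplying each gene's 16-month slope by the acinar difference of 2.03 at 10 months gave a median of 1.75 for these 89 genes, close to the measured median. With r of at least 0.8 there were 180 such genes (median 1.16) and with 0.95 there were 51 (median 1.59).

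The highest of these outside every list was 2210010C04Rik, a protein-coding gene, at 2667 and 1519.8 CPM in the controls against 7063 and 10391 CPM in the transgenic libraries (log2 fold change 2.06, SE 0.72). The long noncoding RNA 1810028F09Rik was at 35.5 and 15.5 CPM in the controls against 75.5 and 77 CPM in the transgenic libraries (log2 fold change 1.59, SE 0.68). With the acinar covariate they were at 0.07 and -0.19. Prdx4, a peroxiredoxin of the endoplasmic reticulum, was at 30.4 and 22.8 CPM in the controls against 50.2 and 64.5 CPM in the transgenic libraries (log2 fold change 1.11, SE 0.41). Tmed6, which encodes a transport protein of the secretory pathway, was at 26.4 and 22.8 CPM in the controls against 58.7 and 94.5 CPM in the transgenic libraries (log2 fold change 1.64, SE 0.41). The kallikrein Klk1b5 was at 20.5 and 7.28 CPM in the controls against 43.9 and 57.7 CPM in the transgenic libraries (log2 fold change 1.89, SE 0.65). Hsd17b13, a lipid droplet protein, and Tmem97, a sterol-related membrane protein, had fold changes of 1.64 (SE 0.60) and 1.06 (SE 0.48). In all 7 both transgenic libraries lay above both controls, as in 78 of the 89 followers and 17.2% of all genes. Klk1b5 belongs to a family of near-identical kallikrein genes.

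Outside the acinar lists and these followers, the balance of higher and lower genes followed the scaling. Of the other 19080 genes, 0 (0%) passed the adjusted p, 547 were higher (2.87%) and 549 were lower (2.88%) at the unadjusted p, and the median fold change was -0.01. Trimmed mean scaling centres most genes near 0, and with total counts 136 were higher and 1672 lower. Without transgenic replicate 1 they were 2096 and 2789. With the acinar level as a covariate in the fit, the secretory median was 0.01 by construction, because the covariate is that list's own mean level. In this fit 113 genes were higher (0.588%) and 210 lower (1.09%). Genotype and acinar level moved together in these 4 libraries, so this covariate also takes up difference that is shared between them.

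**Figure D3:**
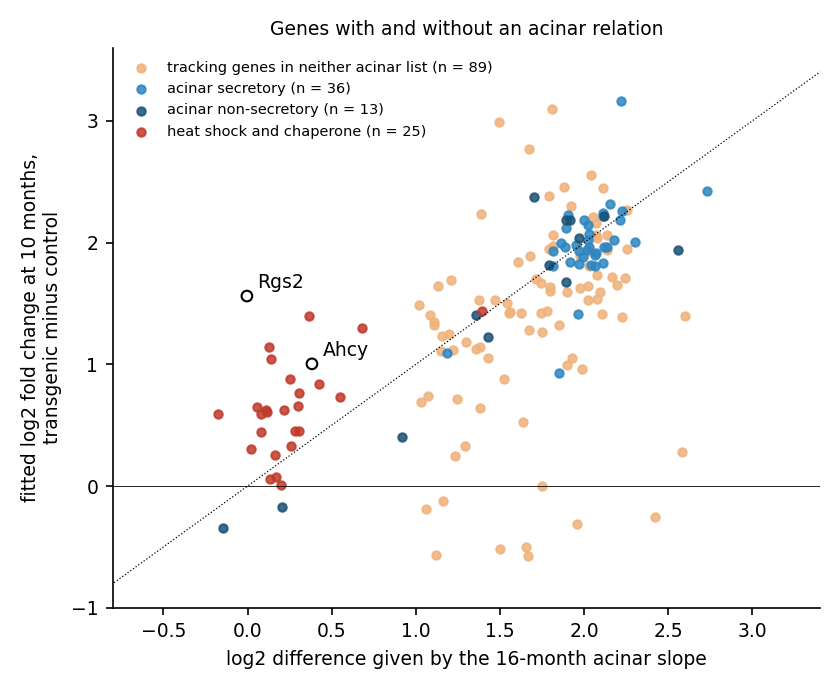
Fitted log2 fold change at 10 months (y axis) against the log2 difference that a gene's 16-month slope on the acinar level gives (x axis). Points are genes, and the dotted line marks equal values. Of the acinar genes 43 of 49 lie within 0.5 of the line. For the secretory genes this follows in part by construction, because the acinar level is that list's own mean. Of the 89 follower genes, which are in neither list, 53 lie within 0.5 of the line and 9 are below 0. Ahcy (1.00 against 0.38), Rgs2 (1.56 against -0.00) and most heat shock genes lie above the line.

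Heat shock and chaperone genes were the list outside the acinar lists with the most members at a small p. All 25 genes of the list had a fold change above 0, with a median of 0.62, and 18 were higher and 0 lower at the unadjusted p, against 2.87% and 2.88% of the genes outside the acinar group. For 21 of 25 both transgenic libraries lay above both controls, as for 16.6% of those genes. Their 16-month acinar slopes gave a median of 0.20. The list was written with earlier results of these data known, so its direction is a description.

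Heat shock factor 1 binds repeats of GAA and its complement TTC. An element of GAA, TTC and GAA, each 2 bases from the next, was sought on both strands in the same promoter windows and occurred in 4 of 20 list genes with an entry (20%), against 0.662% of 27025 genes. It occurred in 0 of 27 acinar secretory genes, in 0 of 11 other acinar genes and in 1 of 22 beta cell genes (4.55%), Iapp. The 4 were Hsph1, Hspd1, Hspe1 and Chordc1. Hspd1 and Hspe1 share 1 promoter and read away from each other, so they share 1 stretch. In the stretches below, 5′ to 3′ on the gene's strand, capitals mark all letters covered by matches.
Hspe1 (chr1:55088054-55088081, plus strand, with 2 overlapping matches): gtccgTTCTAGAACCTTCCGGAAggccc
Chordc1 (chr9:18292260-18292288, plus strand, with 3 overlapping matches): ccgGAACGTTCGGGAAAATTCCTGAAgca
Hsph1 (chr5:149636280-149636308, minus strand, with 1 match after the start): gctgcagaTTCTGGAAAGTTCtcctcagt

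The mitochondrial chaperonin pair was higher in both transgenic libraries. Hspe1, the smaller partner of the pair, stood at 90.3 and 99.1 CPM in the controls against 142 and 248 CPM in the transgenic libraries (log2 fold change 1.04, SE 0.24, 95% interval 0.51 to 1.57, edgeR adjusted p = 0.701). Hspd1, the larger partner, stood at 169 and 214 CPM in the controls against 251 and 339 CPM in the transgenic libraries (log2 fold change 0.63, SE 0.18). Exons of these 2 genes overlap on opposite strands, and the strand setting used in counting is not given in the sources used here, so their reads may be shared.

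HSP90 and its partners were higher as well. Ahsa1, an activator of the HSP90 ATPase, stood at 72.9 and 63.8 CPM in the controls against 115 and 187 CPM in the transgenic libraries (log2 fold change 1.14, SE 0.21, 95% interval 0.67 to 1.61, edgeR adjusted p = 0.701). The related Ahsa2 stood at 11.3 and 11.2 CPM in the controls against 21.3 and 38.2 CPM in the transgenic libraries (log2 fold change 1.40, SE 0.26). Exons of both overlap other annotated genes, so part of their counts could belong to those. Hsp90aa1, the inducible HSP90, stood at 518 and 602 CPM in the controls against 838 and 1063 CPM in the transgenic libraries (log2 fold change 0.76, SE 0.22). Its constitutive relative Hsp90ab1 stood at 1504 and 1522 CPM in the controls against 2019 and 2540.5 CPM in the transgenic libraries (log2 fold change 0.59, SE 0.18). In these 4 genes the lower transgenic library was above the higher control. Stip1, which links HSP70 to HSP90, stood at 101 and 105 CPM in the controls against 148 and 230.1 CPM in the transgenic libraries (log2 fold change 0.88, SE 0.21). Chordc1, an HSP90 co-chaperone, stood at 46.1 and 41.7 CPM in the controls against 67.2 and 89.7 CPM in the transgenic libraries (log2 fold change 0.84, SE 0.26). Fkbp5, an HSP90 partner of steroid receptors that also responds to glucocorticoids, stood at 113 and 106 CPM in the controls against 152 and 178 CPM in the transgenic libraries (log2 fold change 0.59, SE 0.14).

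The HSP70 genes were uneven. Hspa8, the constitutive HSP70, stood at 1305 and 1422 CPM in the controls against 1946 and 2353 CPM in the transgenic libraries (log2 fold change 0.66, SE 0.23). Hsph1, a nucleotide exchange factor for HSP70, stood at 324 and 372 CPM in the controls against 545 and 608 CPM in the transgenic libraries (log2 fold change 0.73, SE 0.27), and the related Hspa4l at 33.2 and 38.1 CPM in the controls against 63.5 and 48.3 CPM in the transgenic libraries (log2 fold change 0.65, SE 0.18). The stress-inducible Hspa1a, however, stood at 164 and 269 CPM in the controls against 256 and 290.4 CPM in the transgenic libraries and overlapped between the groups (log2 fold change 0.33, SE 0.41). Its near-identical copy Hspa1b behaved alike, at 192 and 345 CPM in the controls against 339.7 and 397 CPM in the transgenic libraries (log2 fold change 0.46, SE 0.31), and reads of the 2 copies can be split. Dnajb1, an HSP40 strongly induced by heat, stood at 294 and 407 CPM in the controls against 411 and 543 CPM in the transgenic libraries (log2 fold change 0.44, SE 0.55). The small chaperone Hspb1 stood at 49.4 and 64.9 CPM in the controls against 105 and 176 CPM in the transgenic libraries (log2 fold change 1.30, SE 0.42).

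The size of the heat shock difference depended on the library. Against the control mean, the list median was 0.42 in transgenic replicate 1 and 0.79 in replicate 2. Without replicate 2, 24 of 25 members were above 0 and 10 were higher at the unadjusted p, where 0.967% of all genes were. Single genes followed this, with fold changes without replicate 2 of 0.59 for Hspe1, 0.75 for Ahsa1, 0.92 for Ahsa2, 0.59 for Hsp90aa1, 0.88 for Hspb1 and 0.48 for Fkbp5. With the length trend removed the median was 0.67 and 17 were higher and 0 lower (3.69% and 2.77% of all genes). With the acinar level as a covariate it was 0.39, and 5 were higher (0.588% of all genes). Scaling by total counts gave 0.35, where the median of all genes was -0.25.

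The cytosolic chaperonin, chosen after its values were seen, was higher by less. All 8 subunit genes had a fold change above 0, with a median of 0.39, and 5 were higher at the unadjusted p. Cct3 stood at 104 and 100.5 CPM in the controls against 137 and 178 CPM in the transgenic libraries (log2 fold change 0.62, SE 0.16) and Cct7 at 208 and 207 CPM in the controls against 276 and 357 CPM in the transgenic libraries (log2 fold change 0.61, SE 0.15). Without transgenic replicate 2 the median was 0.19. Other stress lists were nearer to all genes. The immediate early list, of genes induced within minutes of a stimulus, had a median of 0.01, with 8 of 16 above 0. Genes of the endoplasmic reticulum stress response had a median of 0.12, which was 0.03 without transgenic replicate 2, and 1 of 23, Herpud1, was higher at the unadjusted p, at 919 and 1003 CPM in the controls against 1209 and 1354 CPM in the transgenic libraries (log2 fold change 0.41, SE 0.18).

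Ahcy had the smallest p among the genes named outside the acinar lists. It encodes S-adenosylhomocysteine hydrolase, which clears the product of methylation reactions, and lies at chr2:155059310-155074497 (GRCm38). Its level was 47.7 and 38.5 CPM in the controls against 84.2 and 88.4 CPM in the transgenic libraries (log2 fold change 1.00, SE 0.17, 95% interval 0.61 to 1.39, edgeR adjusted p = 0.701). The 2 transgenic values were close to each other and above both controls. The fold change was 0.97 without transgenic replicate 2, 0.94 with the length trend removed and 0.60 with the acinar covariate, and its 16-month acinar slope gave 0.38. DESeq2 called it (adjusted p = 0.00233), as did edgeR without a filter on low counts (adjusted p = 0.007).

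The methionine cycle list as a whole did not move as one. Of 17 tested genes 12 had a fold change above 0, with a median of 0.18, and 4 were higher at the unadjusted p. Shmt1, the cytosolic serine hydroxymethyltransferase, was low, at 0.348 and 0.239 CPM in the controls against 0.830 and 0.863 CPM in the transgenic libraries (log2 fold change 1.57, SE 0.45). Gamt, which makes creatine, stood at 9.21 and 5.42 CPM in the controls against 21.3 and 30.6 CPM in the transgenic libraries (log2 fold change 1.84, SE 0.59), where its acinar slope gave 1.61. Cth, cystathionine gamma-lyase, stood at 2.53 and 1.29 CPM in the controls against 7.15 and 7.47 CPM in the transgenic libraries (log2 fold change 1.96, SE 0.69), where its slope gave 1.78. With the acinar covariate Gamt was at 0.22, Cth at 0.29 and Shmt1 at 0.77.

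Rgs2 and Pde7b, which limit G protein and cyclic AMP signalling, lay on opposite sides. Rgs2, a GTPase activator for G protein alpha subunits, stood at 128 and 84.1 CPM in the controls against 247 and 379 CPM in the transgenic libraries (log2 fold change 1.56, SE 0.28, 95% interval 0.94 to 2.18, edgeR adjusted p = 0.701) and lies at chr1:143999338-144004161. Its acinar slope was near 0. Its fold change was 1.22 without transgenic replicate 2. Its family showed no common direction, with 8 of 16 tested genes above 0, and Rgs3 stood at 31.9 and 27.8 CPM in the controls against 25.1 and 16.7 CPM in the transgenic libraries (log2 fold change -0.51, SE 0.20), with a fold change of -0.25 without that library. Pde7b, a cyclic AMP phosphodiesterase at chr10:20398004-20725078, stood at 10.4 and 11.2 CPM in the controls against 6.44 and 4.91 CPM in the transgenic libraries (log2 fold change -0.92, SE 0.18, 95% interval -1.33 to -0.51, edgeR adjusted p = 0.701). With the length trend removed its fold change was -0.59, and without transgenic replicate 2 it was -0.74. Among 15 phosphodiesterase genes tested, 3 were lower and 1 higher at the unadjusted p, against 2.86% and 3.33% of all genes. The lower ones numbered 1 without transgenic replicate 2 or with the length trend removed. Pde8b, higher with all libraries, stood at 1.30 and 1.51 CPM in the controls against 3.09 and 1.84 CPM in the transgenic libraries (log2 fold change 0.81, SE 0.30), and its fold change was 0.41 without transgenic replicate 1.

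A pair of collagen prolyl hydroxylases was higher. P4ha1, a catalytic subunit of the enzyme that hydroxylates proline in collagen, stood at 78.7 and 75 CPM in the controls against 123 and 137 CPM in the transgenic libraries (log2 fold change 0.76, SE 0.16, 95% interval 0.41 to 1.12, edgeR adjusted p = 0.701). The alternative subunit P4ha2 stood at 26.2 and 22.2 CPM in the controls against 39.1 and 46.6 CPM in the transgenic libraries (log2 fold change 0.83, SE 0.19), and the lysyl hydroxylase Plod1 at 35.3 and 28 CPM in the controls against 49.96 and 54.4 CPM in the transgenic libraries (log2 fold change 0.72, SE 0.18). All 3 were nearly as high without transgenic replicate 2, at 0.69, 0.70 and 0.67. They were 3 of 11 collagen hydroxylation genes tested, a list chosen after values were seen, whose median was 0.18. That median was -0.07 with scaling by total counts, where the median of all genes was -0.25. Mdm1, a centriole protein that is not part of this list, varied little within either group, at 73.6 and 74 CPM in the controls against 113 and 131 CPM in the transgenic libraries (log2 fold change 0.73, SE 0.13). Without transgenic replicate 2 its fold change was 0.62. An antisense predicted gene overlaps Mdm1.

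Cell cycle genes had a median above 0 from a low level. In the proliferation list 19 of 22 genes had a fold change above 0, with a median of 0.56, and 6 were higher at the unadjusted p, against 3.33% of all genes. Uhrf1, which maintains DNA methylation at replication and is not in this list, stood at 0.285 and 0.499 CPM in the controls against 1.32 and 1.05 CPM in the transgenic libraries (log2 fold change 1.53, SE 0.36). The cyclin Ccna2 stood at 0.665 and 0.890 CPM in the controls against 1.52 and 1.88 CPM in the transgenic libraries (log2 fold change 1.10, SE 0.31) and Ccnb1 at 0.190 and 0.250 CPM in the controls against 0.458 and 0.750 CPM in the transgenic libraries (log2 fold change 1.39, SE 0.42). For these 3 both transgenic libraries were above both controls. Birc5 and Aurkb, of the chromosomal passenger complex, had fold changes of 1.57 (SE 0.53) and 2.17 (SE 0.81) from levels under 1 CPM. Uhrf1 rested on 9 and 46 counts in the controls and 46 and 28 in the transgenic libraries. Its average log2 CPM was 1.63 over all 10 libraries, and its fold change was 1.68 without transgenic replicate 2. Without that library the list median was 0.20 and 1 of 22 was higher at the unadjusted p, against 0.967% of all genes. The lymphocyte markers, which come from cells that can divide, moved with this list and are given below. Their part in the result was not tested.

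Genes outside the acinar lists that were lower came from several families. Ccl28, a chemokine of epithelial cells, stood at 22 and 17.3 CPM in the controls against 9.84 and 6.45 CPM in the transgenic libraries (log2 fold change -1.26, SE 0.29, 95% interval -1.91 to -0.61, edgeR adjusted p = 0.701). Gprc6a, an amino acid-sensing receptor, stood at 2.12 and 2.28 CPM in the controls against 1.00 and 0.638 CPM in the transgenic libraries (log2 fold change -1.41, SE 0.29). Chp2, a calcineurin-related calcium-binding protein, stood at 3.93 and 2.99 CPM in the controls against 1.46 and 1.58 CPM in the transgenic libraries (log2 fold change -1.18, SE 0.27). In all 3 both transgenic libraries were under both controls. Kcnb2, a voltage-gated potassium channel, stood at 10.4 and 12.8 CPM in the controls against 7.21 and 3.49 CPM in the transgenic libraries (log2 fold change -1.11, SE 0.29). P2ry12, an ADP receptor whose exons overlap Med12l on the other strand, stood at 5.13 and 4.83 CPM in the controls against 2.72 and 2.66 CPM in the transgenic libraries (log2 fold change -0.89, SE 0.23). Arhgap36, an inhibitor of protein kinase A, stood at 15.8 and 19 CPM in the controls against 10.4 and 8.44 CPM in the transgenic libraries (log2 fold change -0.88, SE 0.22). AI593442, a poorly described gene, stood at 2.66 and 3.54 CPM in the controls against 1.32 and 1.16 CPM in the transgenic libraries (log2 fold change -1.32, SE 0.35).

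Osbpl5 and Specc1 had the smallest fold changes among the 10 lower genes chosen by p. Osbpl5, a lipid transfer protein, stood at 37.2 and 36.4 CPM in the controls against 25.7 and 22.1 CPM in the transgenic libraries (log2 fold change -0.62, SE 0.14). Specc1, a cytoskeletal protein with 14840 bases of exon, stood at 17.5 and 19.8 CPM in the controls against 13.8 and 11 CPM in the transgenic libraries (log2 fold change -0.59, SE 0.15). With the length trend removed, Specc1 was at -0.19, Kcnb2 at -0.77 and Osbpl5 at -0.58. Without transgenic replicate 2, Specc1 was at -0.43, Kcnb2 at -0.68, Chp2 at -1.23, Gprc6a at -1.13 and Ccl28 at -0.99.

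**Figure D4:**
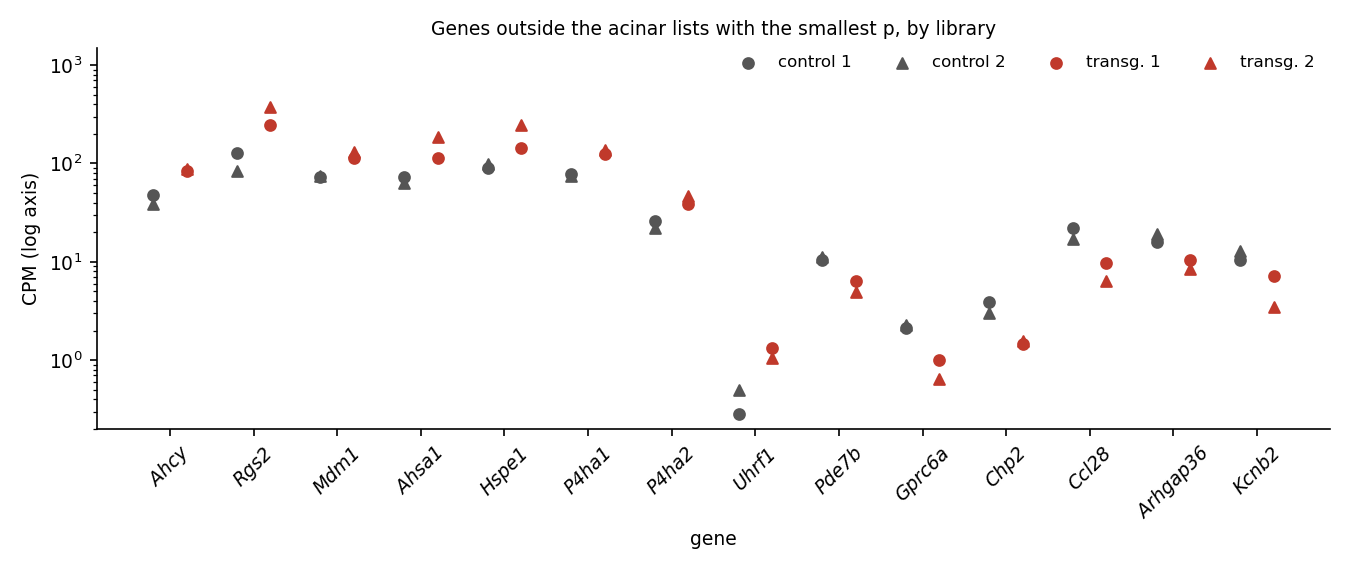
CPM (y axis, log scale) of genes outside the acinar lists with a small p, 1 column of points for each gene (x axis). Grey points are control and red points transgenic libraries, circles replicate 1 and triangles replicate 2. In every gene plotted the 2 colours do not overlap, for example Ahcy at 47.7 and 38.5 against 84.2 and 88.4 CPM. The genes were picked by p in this same comparison, so this separation largely follows from the choice. Of all genes, 17.2% lay apart as higher and 16.2% as lower.

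DESeq2 also called genes with lower counts than the rule for named genes allows. Mef2b, a MEF2 family transcription factor, stood at 0.0950 and 0.141 CPM in the controls against 0.429 and 1.39 CPM in the transgenic libraries (DESeq2 adjusted p = 0.0426). Tdh, threonine dehydrogenase, stood at 0.348 and 0.402 CPM in the controls against 1.95 and 4.13 CPM in the transgenic libraries (DESeq2 adjusted p = 0.0154). Tdh is also among the 89 followers of the acinar level, and its fold change was 2.99 with all libraries and 1.37 with the acinar covariate. Both were highest in transgenic replicate 2. Of the 22 DESeq2 calls, 4 were immunoglobulin segments of B cells (2 higher and 2 lower), and 1 was Pou2af1, a B cell coactivator, which was higher. The lymphocyte markers, given below, were also high in that library, and their part in these calls was not tested. These genes are named after their values were seen. Of the genes named above, DESeq2 called Ahcy, Rgs2, Mdm1, Ahsa1, Ahsa2, P4ha1, Hspe1 and Tmed6 as higher and Pde7b, Gprc6a and Ccl28 as lower.

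Islet hormone genes did not separate the groups clearly. Ins2 stood at 185189 and 151195 CPM in the controls against 176470.0 and 283617 CPM in the transgenic libraries and overlapped (log2 fold change 0.45, SE 0.38), with a fold change of 0.07 without transgenic replicate 2. Ins1 stood at 60814 and 58984 CPM in the controls against 37452 and 56116 CPM in the transgenic libraries (log2 fold change -0.36, SE 0.30), with both transgenic libraries under both controls. Its fold change was -0.67 without transgenic replicate 2 and -0.07 without replicate 1. Reads of these close copies can be split. Gcg, glucagon, stood at 14421 and 22555 CPM in the controls against 14419 and 18004 CPM in the transgenic libraries (log2 fold change -0.19, SE 0.30). Sst and Ppy had fold changes of 0.01 (SE 0.31) and -0.05 (SE 0.59).

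The beta cell median lay slightly under that of all genes, and the share of members at a small p was near the background. Of 29 tested, 9 had a fold change above 0, with a median of -0.13. At the unadjusted p 1 was higher and 2 were lower, against 3.33% and 2.86% of all genes. For 8 of 29 both transgenic libraries lay below both controls and for 2 above, against 16.2% and 17.2% of all genes. G6pc2, the islet glucose-6-phosphatase, stood at 1860.2 and 1535 CPM in the controls against 2321 and 3009 CPM in the transgenic libraries (log2 fold change 0.65, SE 0.22). Trpm5, a calcium-activated cation channel, stood at 185 and 151 CPM in the controls against 119 and 127 CPM in the transgenic libraries (log2 fold change -0.45, SE 0.18). Glp1r, the incretin receptor, stood at 727 and 681 CPM in the controls against 579 and 355 CPM in the transgenic libraries (log2 fold change -0.59, SE 0.26), with most of its difference in transgenic replicate 2. Mafa, a beta cell transcription factor, stood at 274 and 376 CPM in the controls against 258 and 279 CPM in the transgenic libraries (log2 fold change -0.28, SE 0.19). The beta median was -0.07 without that library and 0.08 with the acinar covariate. Exocytosis genes had a median of -0.13 with 6 of 22 above 0, and alpha cell genes -0.35 with 3 of 12 above 0. The alpha median was 0.05 without control replicate 2, and 0.01 with 6 of 12 above 0 with the acinar covariate.

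Markers of other cells were read for the whole lists. Lymphocyte markers had a median of 0.86, with 19 of 21 above 0 and 0 at the unadjusted p. The B cell gene Cd79b stood at 0.570 and 1.63 CPM in the controls against 1.40 and 5.74 CPM in the transgenic libraries (log2 fold change 1.56, SE 0.92), high mainly in transgenic replicate 2, and without that library the list median was 0.16. Duct genes had a median of 0.26, with 10 of 14 above 0, which was 0.03 without transgenic replicate 2 and -0.01 with the acinar covariate. The duct mucin Muc1 stood at 19.5 and 9.98 CPM in the controls against 32.2 and 32.3 CPM in the transgenic libraries (log2 fold change 1.14, SE 0.45), where its acinar slope gave 1.10, and Krt19 stood at 2.75 and 4.73 CPM in the controls against 4.89 and 10.8 CPM in the transgenic libraries (log2 fold change 1.05, SE 0.49). Regenerating islet-derived genes, secreted by stressed acinar cells, had a median of 1.21, with 5 of 5 above 0. That median was 2.75 without control replicate 1, 0.51 without control replicate 2 and -0.23 with the acinar covariate, where 0 of 5 were above 0. Reg3d stood at 75.1 and 21.1 CPM in the controls against 119.8 and 136 CPM in the transgenic libraries (log2 fold change 1.42, SE 0.69) and Reg3g at 20.04 and 4.23 CPM in the controls against 28.9 and 28.1 CPM in the transgenic libraries (log2 fold change 1.25, SE 0.73).

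Blood and fat markers followed single libraries. All 5 red blood cell genes tested were below 0, with a median of -1.10, which was 0.39 without control replicate 1. Hbb-bs, a beta globin, stood at 106 and 21.8 CPM in the controls against 22.4 and 33.3 CPM in the transgenic libraries (log2 fold change -1.19, SE 0.79), so it was high in control replicate 1 alone. The adipocyte list had a median of 1.54, with 5 of 5 above 0, and -0.05 without transgenic replicate 2. Cfd, adipsin, stood at 0 and 0.326 CPM in the controls against 0.715 and 3.04 CPM in the transgenic libraries (log2 fold change 3.23, SE 1.15). Endothelial, stellate and macrophage lists had medians of -0.12, -0.25 and -0.04. Without control replicate 2 the stellate median was 0.05 and the macrophage median 0.10. Schwann cell genes had a median of 0.59, with 6 of 6 above 0 and 0 at the unadjusted p, and 0.27 without transgenic replicate 2.

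Ribosomal and respiratory chain genes were higher mainly in transgenic replicate 2. All 30 ribosomal protein genes had a fold change above 0, with a median of 0.43, and 7 were higher at the unadjusted p. Rplp1, of the ribosomal stalk, stood at 505 and 404 CPM in the controls against 543 and 774 CPM in the transgenic libraries (log2 fold change 0.53, SE 0.21). The median was 0.12 without replicate 2 and 0.31 with the length trend removed. Of 32 nuclear genes of oxidative phosphorylation 31 were above 0, with a median of 0.26. That median was 0.05 without replicate 2 and 0.18 with the length trend removed. Scaling by total counts gave -0.01, where the median of all genes was -0.25. Ndufa4, of the respiratory chain, stood at 48.5 and 41 CPM in the controls against 51 and 80.7 CPM in the transgenic libraries (log2 fold change 0.56, SE 0.21). The median summed exon lengths of the ribosomal and the respiratory list were 1989.5 and 2101 bases, within the shortest class of genes, which read high in that library. The part of gene length in the result was not tested beyond these fits.

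Glycolysis genes, a known target group of SIRT6, had a median of 0.08, with 17 of 22 above 0. Hk2, a hexokinase, stood at 1.93 and 1.82 CPM in the controls against 3.81 and 5.10 CPM in the transgenic libraries (log2 fold change 1.25, SE 0.39), and Ldha, lactate dehydrogenase A, stood at 26.6 and 18.3 CPM in the controls against 32.4 and 49.4 CPM in the transgenic libraries (log2 fold change 0.87, SE 0.35). Ldha is also among the genes that beta cells keep low, whose list had a median of 0.37 with 18 of 22 above 0, and -0.44 with the acinar covariate. The acinar slopes of Hk2 and Ldha gave 0.45 and 0.46. NF-kappaB targets had a median of 0.20, with 16 of 18 above 0 and 0 at the unadjusted p, and -0.23 with 6 of 18 above 0 with the acinar covariate. The remaining sirtuins overlapped between the groups, and 0 of 7 sirtuin genes passed the unadjusted p in either direction.

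**Figure D5:**
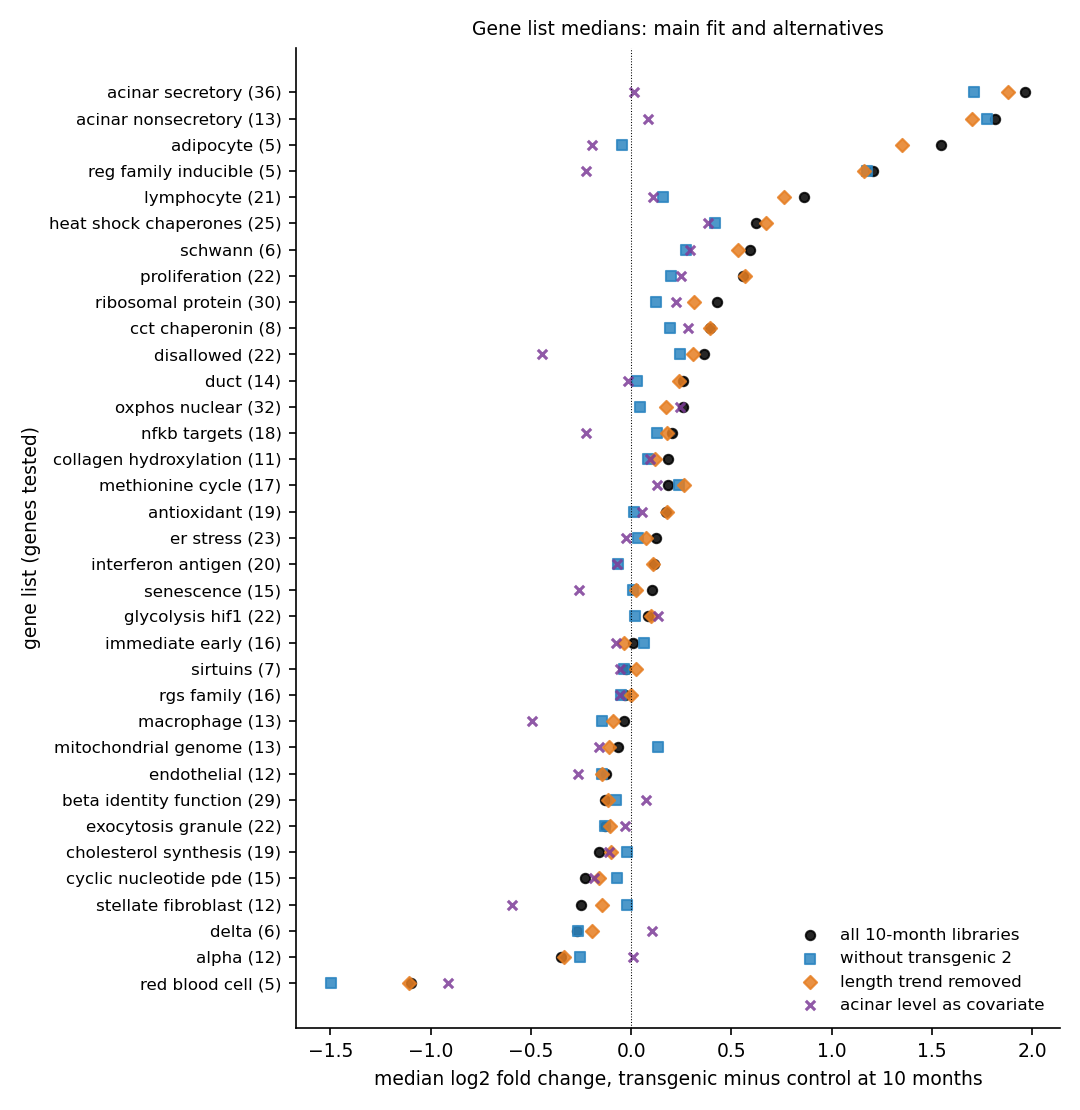
Median log2 fold change at 10 months (x axis) of each gene list with at least 5 tested genes (y axis, number tested in brackets). Symbols are the fit with all libraries, the fit without transgenic replicate 2, with the length trend removed, and with the acinar level as covariate. The acinar secretory median of 1.96 is 0.01 under the covariate by construction, because the covariate is that list's own mean level. The heat shock median lies between 0.39 and 0.67.

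The genotype difference at 16 months was set against that at 10 months for the same genes. By edgeR 0 of 19218 genes differed at an adjusted p under 0.05, and at the unadjusted p the difference was lower at 16 months for 1302 genes (6.77%) and higher for 457 (2.38%). Many lists shared this direction. It was lower at 16 months for 16 of 25 heat shock genes, 19 of 22 proliferation genes, 17 of 21 lymphocyte markers, 23 of 30 ribosomal protein genes and 15 of 20 interferon and antigen presentation genes, against those 6.77% of all genes. Of the acinar secretory genes 12 of 36 were lower in this way. The 16-month medians themselves were -2.86 for the lymphocyte, -1.34 for the proliferation and -0.98 for the interferon list. They were -0.30 for the ribosomal, -0.10 for the heat shock and 0.03 for the acinar secretory list. The difference of the 16-month from the 10-month fold change was -1.06 for Ahcy (SE 0.22), -2.10 for Rgs2 (SE 0.35) and -3.11 for Uhrf1 (SE 0.44). At 16 months their fold changes were -0.06, -0.53 and -1.59. These genes were named for a small p as higher at 10 months. The difference subtracts that same 10-month value, so its negative sign follows in part from the choice. Age here is also batch, and which of the 2 goes with the change cannot be told apart.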

How the data were processed

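Per the labels' protocols, total RNA (RNeasy Plus Mini Kit) went into stranded mRNA libraries of an Illumina kit. Per the submitters' processing notes the tools included featureCounts 2.0.0, STAR 2.7.11a and Trim Galore 0.6.10, with mm10 (GRCm38) as genome. The annotation and strand setting are not given in the sources used here. The authors deposited raw counts of reads per gene for 10 libraries in a table of 56262 genes, and 55141 identifiers matched GENCODE vM21, from which exon lengths and positions came. Totals were 32533177 to 92529221 counts per 10-month library. Replicates differed far beyond counting error (chi-square per degree of freedom 81.8 between controls and 110.7 between transgenic libraries), so the number of libraries limits the precision.

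Genes passing filterByExpr were fitted with edgeR 4.0.16 in R 4.3.3 (trimmed mean of M-values scaling, robust quasi-likelihood F test, 4 group means over all 10 libraries), with a Benjamini-Hochberg adjusted p under 0.05 as the call. The code was tested on simulated data. Alternatives were DESeq2 1.42.0, limma-voom 3.58.1 with quality weights, other scalings and filters, the 10-month libraries alone, a replicate block within each age, the acinar level as covariate and leaving out each library. Removal of the length trend (a lowess curve of log2 CPM on log exon length in each library) and a block at 16 months only were added after seeing the data. Same-numbered libraries of the 2 genotypes deviated together at 16 months (correlations of 0.276, 0.242 and 0.186, against -0.241 to 0.00668 for other pairs). At 10 months they did not (-0.0986). The labels do not say whether replicate numbers pair libraries, and these correlations alone do not settle it.

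The comparison, the 34 gene lists and the tests were chosen with earlier results of these data known, and 2 further lists after values were seen. Genes were named by a rule: the sirtuins and hormone genes; 6 acinar secretory genes by level and 3 other acinar genes by p; outside these lists the 10 smallest p in each direction at an average log2 CPM of at least 1, without predicted genes, pseudogenes or antigen receptor segments; the smallest p in each list; and the 5 highest follower genes of the acinar level in no list. Those outside it (among them most heat shock genes, Hspd1 and Hsp90aa1 included, Cct3, Cct7, Plod1, Mafa, Reg1, Klk1b5, Hsd17b13, Prss1, Try5 and Dmbt1) were named after their values were seen. Of 576 list genes, those with too few counts, such as Gatm, were not tested.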

Additional observations from a re-analysis of the deposited data

How the results depend on the processing

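At 10 months 2 libraries a group limit every call, and a gene at p under 0.05 here can still lie within the spread of the libraries. Genes past the adjusted p numbered 0 by edgeR, limma-voom, RLE or total-count scaling, a stricter filter, the 10-month libraries alone and the length correction. DESeq2 called 22 (19 outside the acinar group), and edgeR without a filter on low counts called 6 (5 outside). Leaving out each library gave 0 to 1895 calls (0 to 1893 outside the acinar group), with the highest count without transgenic replicate 1. With the length trend also removed, that setting gave 659 (658 outside). The difference between the ages gave 69 calls without a filter and 0 to 1408 when each library was left out, the highest again without transgenic replicate 1, with 156 without control replicate 1 of 16 months and 1 without control replicate 3 of 16 months.

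The acinar secretory median was 0.014 with its own level as covariate, by construction, and 1.5 to 2.64 when each library was left out. The heat shock median was 0.35 under total-count scaling, 0.39 with the acinar covariate, 0.86 with the length trend removed and without transgenic replicate 1, and 0.42 to 0.81 when each library was left out. Outside the acinar group, higher and lower genes at the unadjusted p were 356 and 657 by limma-voom, 514 and 804 without a filter and 416 and 204 with the 10-month libraries alone. The genes themselves changed as well. Of the 1189 genes at the unadjusted p in the main fit, 90.4% kept it and their direction by DESeq2. The share was 55.7% by limma-voom and 74.7% without a filter. It was 41.9% with the 10-month libraries alone and 12.2% with the acinar covariate. The cause of these changes was not tested.

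Directions turned for 1 of the 88 named genes without transgenic replicate 2 and for 13 with the acinar level as covariate. Fold changes shrank for 19 genes in the first of these fits and for 33 in the covariate fit. They grew for 3 and for 2 genes. The margin for both counts is the one used above for the fit without transgenic replicate 2. With the acinar covariate the fold changes were 0.23 for Gcg, -0.085 for Pnlip, -0.090 for Prss2, -0.056 for Cpa1, -0.28 for Tmem97, -0.19 for 1810028F09Rik, -0.019 for Prdx4, -0.10 for Hsd17b13, -0.16 for Reg3d, -0.23 for Reg3g, -0.0061 for Dmbt1, -1.09 for Prss1 and -0.49 for Try5. Sst, near 0 throughout, was -0.25 with total-count scaling, -0.021 without a filter, -0.12 with the length trend removed and -0.30 with it removed and without transgenic replicate 2. With the length trend removed and without transgenic replicate 1, Ppy was 0.055 and Specc1 0.0084. When each library was left out, Sirt6 ranged from -0.20 to 0.076, Gcg from -0.48 to 0.17, Sst from -0.26 to 0.28, Ppy from -0.37 to 0.25 and Hbb-bs from -1.93 to 0.35.

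Whether replicate numbers pair libraries at either age is not given in the sources used here. A replicate block at 16 months only gave 0 calls at 10 months and 0 for the difference between ages, where 1483 genes were lower at the unadjusted p against 1302, so it changed no call. With the replicate block at both ages edgeR called 0 genes, 1348 against 1189 had an unadjusted p under 0.05, and Sst was -0.00084.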
